A study of Mus musculus with 6 samples.

Results

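The mitochondrial protein import machinery was followed here as 34 of the 30236 genes in a table of liver tumor RNA. The members were every gene whose symbol begins with Timm or Tomm and a digit, which gave 26, and 8 further genes chosen by name (Pam16, Dnajc19, Grpel1, Grpel2, Chchd4, Samm50, Mtx1 and Mtx2). RNA was sequenced from 3 liver tumors of mice labelled WT and 3 of mice labelled Top1mt -/- (KO), bred as germline knockouts of the gene for mitochondrial topoisomerase I, and the comparison asks which transcripts differ between tumors of these genotypes. All 6 tumors came from male C57BL/6 mice, littermates of heterozygous crosses, given the carcinogen diethylnitrosamine on day 14 after birth. From the age of 8 weeks the mice were injected with carbon tetrachloride, a liver toxin, for 14 weeks, at intervals that the study calls biweekly. Tumors were collected at 22 weeks, so both groups share carcinogen and toxin, and no untreated or normal liver belongs to the comparison. The labels do not say whether the tumors of a genotype came from separate animals, so the p-values below measure the spread between these tumors. The values are the authors' log2 expression values, made by a transform that the sources used here do not name, and no read depth can be recovered from them.

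Nearly all mitochondrial proteins are encoded in the nucleus, made in the cytosol and carried into the organelle through a relay of membrane complexes. The TOM complex is the entry gate of the outer membrane, SAM inserts barrel-shaped proteins there, and the MIA pathway with the small TIM chaperones serves the space between the membranes. TIM22 inserts carrier proteins into the inner membrane, and TIM23 passes proteins with a presequence toward the matrix, where the PAM motor with mitochondrial Hsp70 pulls them in. The liver is rich in mitochondria, and many enzymes of its urea and fat metabolism take this route. By role the members were 9 of TOM, 3 of SAM, 7 of MIA and the small TIM chaperones, 3 of TIM22, 5 of TIM23, 5 of PAM and 2 others. They lie on 18 chromosomes, and 33 of the 34 are annotated as protein coding.

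Promoter sequence was read for 30 of the 34 members, in windows of 250 bases before to 50 after each annotated start, from RefSeq on mouse build GRCm38.p6, and Tomm7, Tomm40l, Timm21 and Grpel2 had no entry. Many nuclear genes for mitochondrial proteins carry sites for GABP (also named NRF2), for NRF1 and for YY1, and the stress factor ATF4 was searched as well. On either strand, the letters of the GABP core, CCGGAAG, stood in 13 of 32 windows, or 40.6%, some genes having more than 1 annotated start, against 8.86% of all 32851 windows and 17.5% of the 10839 windows of genes with a mean log2 value above 6. For the NRF1 letters GCGCANGCG the shares were 15.6%, 6.25% and 13.3%, and for the YY1 letters AAGATGGCG they were 6.25%, 1.40% and 3.15%. The ATF4 letters TGATGNAA were in 0 of 32 windows, against 3.97% of all windows and 2.21% of those of genes above 6. Median GC content was 58.3% for the members, 60.7% for genes above 6 and 52.7% for all. A match is a description of the letters and not a bound site. Examples from the receptors, channels, chaperones and motor are printed next, on the sense strand of the gene with the motif in capitals, with positions counted from the annotated start as 1 and no position 0.
Tomm20, NRF1 letters on the opposite strand at -19 to -11, chr8:126945922-126945950, minus strand: ggtccatctgCGCGTGCGCaccaggcgtt
Pam16, NRF1 letters at -15 to -7, chr16:4624943-4624971, minus strand: tcgcgtccttGCGCACGCGctctccggtc
Timm8b, NRF1 letters on the opposite strand at 20 to 28, chr9:50603910-50603938, plus strand: gctgccaccgCGCGTGCGCaccccagcga
Tomm70a, GABP letters at -80 to -74, chr16:57121624-57121650, plus strand: ccttctgaccCCGGAAGtggttctccc
Tomm22, GABP letters at -44 to -38, chr15:79670814-79670840, plus strand: cggctcgcttCCGGAAGacgctctgtc
Timm23, GABP letters on the opposite strand at -47 to -41, chr14:32201922-32201948, minus strand: gcgcttcccaCTTCCGGgccgcacaca
Mtx2, GABP letters at -25 to -19, chr2:74825777-74825803, plus strand: ggcggagcagCCGGAAGtgccggcgcg
Timm50, YY1 letters at 12 to 20, chr7:28312017-28312045, minus strand: gcgtcagcgcAAGATGGCGgcctcggcgg
Mtx1, YY1 letters at 12 to 20, chr3:89213878-89213906, minus strand: gagagcgtacAAGATGGCGgcgcccatgg
The genes with GABP letters include both receptors Tomm70a and Tomm22 and the chaperone Timm10b, and their expression values follow with those of their complexes. No promoter activity or binding was measured in these tumors.

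Some facts of the libraries touch these genes. The log2 values of Top1mt in replicates 1, 2 and 3 were 7.71, 5.99 and 8.01 for the libraries labelled WT and 5.58, 6.41 and 6.32 for those labelled KO. WT replicate 2 thus lay below 2 of the 3 KO libraries in the targeted gene, against its label, and every direction given below rests on the labels as they stand. Top1mt had a log2 fold change of -1.13 (SE 0.520), and an adjusted p of 0.999 by limma, and leaving out 1 library gave values from -1.76 (without WT replicate 2) to -0.75 (without WT replicate 3). KO replicate 1 stood apart in another way, with 17.7% of its summed linear values in the single gene Gm42418, against at most 0.387% in any of the others. Hepatocyte markers were high in all libraries, the lowest of the 6 being Hnf4a with a mean log2 value of 13.4, and the log2 of their summed level ran from 20.6 to 21.3 in WT and from 20.9 to 21.4 in KO. Among markers of other cells, all 6 stellate cell and fibroblast markers and all 4 neutrophil markers had lower means in KO, with median log2 fold changes of -0.42 and -1.07, as had 4 of 6 bile duct markers, with a median of -0.94, and all 6 endothelial markers had higher means, with a median of 0.11. The log2 of the summed level ran from 12.8 to 14.3 in WT and from 11.9 to 13.8 in KO for the stellate and fibroblast list, and from 7.90 to 9.61 and from 7.40 to 8.03 for the neutrophil list, whose least expressed gene was Ly6g with a mean of 1.41. For the bile duct list the summed level ran from 11.6 to 12.6 in WT and from 11.7 to 12.6 in KO, nearly the same range. The remaining lists had members in both directions, with 3 of 6 higher in KO for macrophage, 2 of 5 for T cell, 2 of 4 for B cell and 3 of 4 for proliferation. Their part in the import values was not tested, and in bulk tissue fewer cells of a type and less RNA per cell cannot be told apart.

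Import transcripts showed no difference between the genotypes that passed the test. By limma with Benjamini-Hochberg adjustment over the 22677 genes tested, 0 of the 34 members had an adjusted p under 0.05, where the share over all genes tested was 0%. No member reached an unadjusted p under 0.05, against 4.34% of all genes tested (1.79% higher and 2.56% lower in KO), and the smallest unadjusted p of a member by limma was 0.0882, for Timm21. Of the members, 17 had a higher and 17 a lower mean in KO, against 47.7% higher over all genes tested, and 21 were higher and 13 lower after centring each library on its median. The median log2 fold change was -0.010 for the members and -0.015 for all genes tested, and it was of the other sign for both after quantile normalization (0.0059 and 0.0031) and after centring each library on its median (0.044 and 0.039). The values per member ran from -0.27 for Tomm40l, a paralog of the TOM channel, to 0.44 for Timm10b, a small chaperone bound to TIM22. In 2 members the 3 WT and the 3 KO values did not overlap, Tomm40 being lower and Timm21 higher in KO, where 8.28% of all genes tested had groups that did not overlap (3.95% higher and 4.33% lower). The count was 5 without any 1 of WT replicates 1, 2 and 3 and KO replicate 1, where 16.2%, 18.3%, 17.4% and 21.5% of all genes had no overlap, and 4 without KO replicate 2 or 3, where the share was 16.9% and 15.9%.

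The interval of each gene gives the size of difference in the authors' log2 values, under these labels, that the tumors could still hide. For 31 of the 34 members the 95% interval of the log2 fold change lay between -1 and 1, against 49.7% of all genes tested. Tomm20l, Tomm6os and Timm10b were the exceptions, and the first pair of these are expressed at low levels. Among the 30 members with a mean log2 value above 6, the interval lay within those bounds for 96.7%, against 85.9% of the 9604 genes in the same range of means. These 30 members varied over the 6 libraries about as other genes of like level did, with a median SD of 0.224 against 0.232. Their median absolute log2 fold change was 0.095, against 0.128 for those genes.

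**Figure D1:**
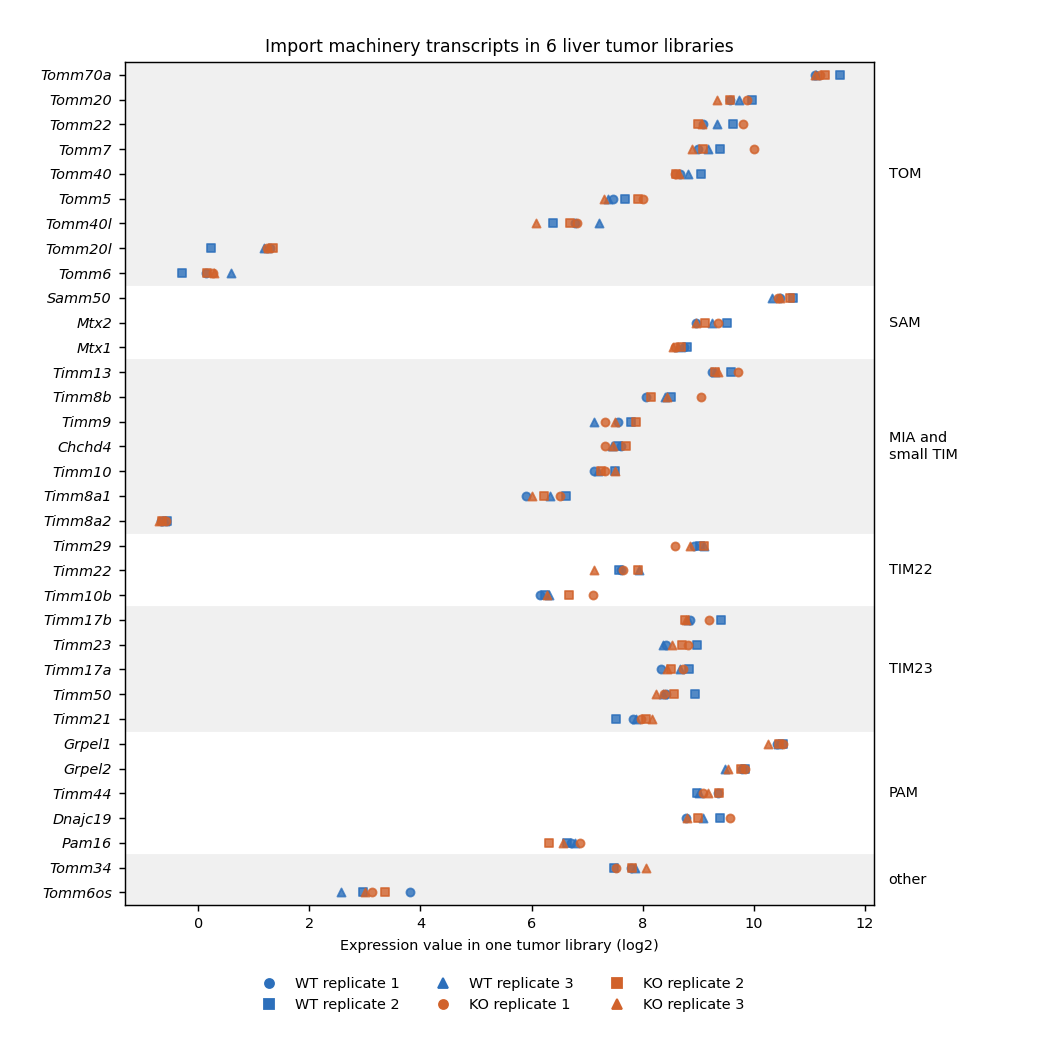
Log2 expression value (horizontal axis) of each of the 34 import genes (rows, grouped by complex) in the 6 tumor libraries, with WT in blue, KO in orange and a symbol for each replicate. WT and KO values overlap in 32 of 34 rows, and 4 genes (Tomm20l, Tomm6, Timm8a2 and Tomm6os) have means below 6.

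The TOM complex begins with its receptors. The log2 values of Tomm20 in replicates 1, 2 and 3 were 9.57, 9.97 and 9.73 for the libraries labelled WT and 9.89, 9.58 and 9.34 for those labelled KO. Tomm20 is the receptor that reads presequences, and its groups overlapped, with a log2 fold change of -0.15 (SE 0.18, 95% interval -0.57 to 0.27). Tomm70a had log2 values of 11.11, 11.55 and 11.12 in WT and 11.20, 11.28 and 11.11 in KO. Tomm70a, the receptor for carrier precursors, lay within 0.44 log2 units over all 6 libraries and had a log2 fold change of -0.065 (SE 0.16, 95% interval -0.44 to 0.31). Tomm22 had log2 values of 9.09, 9.63 and 9.35 in WT and 9.81, 9.001 and 9.08 in KO. Tomm22, the central receptor that also organises the complex, had its highest value in KO replicate 1 and its lowest in KO replicate 2, and its log2 fold change was -0.058 (SE 0.244, 95% interval -0.62 to 0.51).

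Tomm40 is the channel itself, annotated by GENCODE on GRCm38 at chr7:19701313-19715438, minus strand. Tomm40 had log2 values of 8.67, 9.06 and 8.82 in WT and 8.59, 8.60 and 8.65 in KO. All 3 KO values lay below all 3 WT values, though the highest KO and the lowest WT value differed by 0.018. The means were 8.85 ± 0.20 for WT and 8.61 ± 0.030 for KO (SD, n = 3 each), with a log2 fold change of -0.23 (SE 0.147, 95% interval -0.57 to 0.11) and an unadjusted p of 0.152 by limma, and it was -0.13 without WT replicate 2. When each library was centred on its own median, the groups of Tomm40 overlapped. Tomm40l had log2 values of 6.78, 6.39 and 7.22 in WT and 6.82, 6.68 and 6.08 in KO. Its paralog Tomm40l had the lowest log2 fold change of any member, -0.27 (SE 0.302, 95% interval -0.97 to 0.43), with overlapping groups and KO replicate 3 lowest. It was -0.043 without KO replicate 3, -0.057 without WT replicate 3, -0.41 without KO replicate 1 and -0.47 without WT replicate 2. Much of the annotated sequence of Tomm40l is shared with its neighbour Nr1i3 on the opposite strand. Whether counting used strand is not stated, so the values of Tomm40l are uncertain.

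Among the small TOM subunits, which brace the channel, Tomm7 and Tomm5 varied most within KO. Tomm7 had log2 values of 8.996, 9.40 and 9.19 in WT and 10.01, 9.09 and 8.89 in KO. Tomm7 was high in KO replicate 1, the other KO values being within or below the WT range, and its log2 fold change was 0.14 (SE 0.286, 95% interval -0.52 to 0.80), or -0.21 without that library. Tomm5 had log2 values of 7.47, 7.68 and 7.38 in WT and 8.00, 7.92 and 7.31 in KO. Tomm5 was higher in KO replicates 1 and 2 than in any WT library, but KO replicate 3 was the lowest of all, and its log2 fold change was 0.23 (SE 0.224, 95% interval -0.28 to 0.75), or 0.11 without KO replicate 1, 0.14 without KO replicate 2 and 0.45 without KO replicate 3. Tomm6 had log2 values of 0.13, -0.29 and 0.59 in WT and 0.26, 0.16 and 0.28 in KO. Tomm6 was near the bottom of the scale in every library, which is uncertain as a level because 87.6% of its transcript is matched by other genes, chiefly Gm21981, which overlaps it.

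Tomm20l, a paralog of Tomm20, was expressed at a very low level. Tomm20l had log2 values of 1.30, 0.23 and 1.18 in WT and 1.23, 1.35 and 1.25 in KO. WT replicate 2 was 0.95 log2 units below the next library, and the other 5 lay between 1.18 and 1.35. Its log2 fold change of 0.37 (SE 0.388, 95% interval -0.52 to 1.27) was the highest in TOM, but was 0.037 without WT replicate 2, where Tomm5 had 0.32, and 0.57 without WT replicate 1. Over the 9 TOM genes 4 had higher and 5 lower means in KO, with a median log2 fold change of -0.058, which ran from -0.21 without KO replicate 1 to 0.089 without KO replicate 2.

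SAM had 3 members. Samm50 had log2 values of 10.48, 10.70 and 10.32 in WT and 10.44, 10.66 and 10.48 in KO. Samm50 forms the core that inserts barrel proteins, and its log2 fold change was 0.024 (SE 0.146, 95% interval -0.31 to 0.36). Mtx1 had log2 values of 8.75, 8.79 and 8.64 in WT and 8.59, 8.70 and 8.54 in KO. Mtx1, a metaxin on the cytosolic face of SAM, had an SD over the 6 libraries of 0.097, smaller than in any other member except Timm8a2, and a log2 fold change of -0.12 (SE 0.132, 95% interval -0.43 to 0.18). Mtx2 had log2 values of 8.96, 9.52 and 9.25 in WT and 9.35, 9.12 and 8.97 in KO. Mtx2, its partner metaxin, had a log2 fold change of -0.098 (SE 0.182, 95% interval -0.52 to 0.32), and the groups of all 3 genes overlapped. The median over SAM was -0.098, and 0.038 without WT replicate 2.

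MIA and the small TIM chaperones held 7 members. Chchd4 had log2 values of 7.62, 7.56 and 7.45 in WT and 7.32, 7.71 and 7.46 in KO. Chchd4, the oxidoreductase that folds cysteine-rich proteins as they enter, had a log2 fold change of -0.044 (SE 0.175, 95% interval -0.45 to 0.36). Timm8b had log2 values of 8.06, 8.50 and 8.40 in WT and 9.06, 8.15 and 8.44 in KO. Timm8b, a small chaperone, was highest in KO replicate 1, and its log2 fold change of 0.23 (SE 0.248, 95% interval -0.35 to 0.80), the highest of the 7, was -0.027 without that library. Timm13 had log2 values of 9.25, 9.60 and 9.30 in WT and 9.73, 9.31 and 9.35 in KO. Timm13, which acts with the Timm8 proteins, had a log2 fold change of 0.080 (SE 0.168, 95% interval -0.31 to 0.47).

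Timm9 and Timm10 build the hexamer that carries hydrophobic precursors to TIM22. Timm9 had log2 values of 7.55, 7.80 and 7.13 in WT and 7.33, 7.88 and 7.50 in KO. Timm10 had log2 values of 7.13, 7.50 and 7.19 in WT and 7.31, 7.26 and 7.50 in KO. The log2 fold changes were 0.077 (SE 0.235, 95% interval -0.47 to 0.62) for Timm9 and 0.087 (SE 0.186, 95% interval -0.34 to 0.52) for Timm10, with overlapping groups in both. Timm8a1 had log2 values of 5.91, 6.62 and 6.33 in WT and 6.51, 6.22 and 6.02 in KO. Timm8a1, whose human counterpart is the gene of a deafness and dystonia syndrome, had a log2 fold change of -0.040 (SE 0.277, 95% interval -0.68 to 0.60). Timm8a2 had log2 values of -0.67, -0.56 and -0.60 in WT and -0.58, -0.65 and -0.71 in KO. Its paralog Timm8a2 was near the bottom of the scale in all libraries, where its SD of 0.058 over the 6 was the smallest of any member. In this group 4 members had higher and 3 lower means in KO, with a median log2 fold change of 0.077, which ran from -0.027 without KO replicate 1 to 0.19 without WT replicate 2.

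TIM22 had members on both sides of 0, among them Timm10b, annotated at chr7:105640056-105643637, plus strand. The log2 values of Timm10b in replicates 1, 2 and 3 were 6.15, 6.25 and 6.32 for the libraries labelled WT and 7.10, 6.67 and 6.28 for those labelled KO. In Timm10b, KO replicates 1 and 2 were above every WT library and KO replicate 3 was inside the WT range. The means were 6.24 ± 0.083 for WT and 6.68 ± 0.41 for KO (SD, n = 3 each), with the largest log2 fold change of the 34 genes, 0.44 (SE 0.264, 95% interval -0.17 to 1.05), and an unadjusted p of 0.132 by limma. Without KO replicate 1 it was 0.24, less than that of Tomm20l (0.40) and Timm21 (0.37), and without KO replicate 3 it was 0.65. Timm22 had log2 values of 7.60, 7.58 and 7.93 in WT and 7.64, 7.92 and 7.12 in KO. Timm22, the channel of this translocase, had its lowest value in KO replicate 3 and a log2 fold change of -0.14 (SE 0.236, 95% interval -0.69 to 0.40). Timm29 had log2 values of 8.92, 9.03 and 9.10 in WT and 8.59, 9.11 and 8.85 in KO. Timm29, a subunit that holds the complex together, was lowest in KO replicate 1, with a log2 fold change of -0.17 (SE 0.165, 95% interval -0.55 to 0.21). The median over the 3 was -0.14, and ran from -0.30 without KO replicate 2 to 0.078 without KO replicate 3.

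TIM23 held the other member whose groups did not overlap. The log2 values of Timm21 in replicates 1, 2 and 3 were 7.83, 7.52 and 7.88 for the libraries labelled WT and 7.97, 8.05 and 8.18 for those labelled KO. All 3 KO values of Timm21, which links TIM23 to TOM and to respiratory chain assembly, lay above all 3 WT values, the nearest being 0.088 apart. The means were 7.74 ± 0.20 for WT and 8.07 ± 0.11 for KO (SD, n = 3 each), with a log2 fold change of 0.32 (SE 0.167, 95% interval -0.061 to 0.71) and an adjusted p of 0.999 by limma, and it was 0.21 without WT replicate 2. Timm50 had log2 values of 8.43, 8.94 and 8.36 in WT and 8.38, 8.56 and 8.24 in KO. Timm50, the receptor of TIM23, was highest in WT replicate 2, with the lowest log2 fold change of this complex, -0.18 (SE 0.194, 95% interval -0.63 to 0.26), which was -0.00071 without that library and -0.29 without WT replicate 3. Timm23 had log2 values of 8.43, 8.98 and 8.37 in WT and 8.82, 8.70 and 8.53 in KO. Timm23, the central subunit, was also highest in WT replicate 2 and had a log2 fold change of 0.092 (SE 0.195, 95% interval -0.36 to 0.54).

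Timm17a and Timm17b are alternative channel subunits of TIM23. Timm17a had log2 values of 8.34, 8.83 and 8.68 in WT and 8.72, 8.51 and 8.44 in KO. Timm17b had log2 values of 8.85, 9.42 and 8.83 in WT and 9.20, 8.76 and 8.78 in KO. Both were highest in WT replicate 2, and their log2 fold changes were -0.061 (SE 0.173, 95% interval -0.46 to 0.34) and -0.12 (SE 0.209, 95% interval -0.60 to 0.36). Over TIM23 the median log2 fold change was -0.061, with 2 genes higher and 3 lower in KO, and it ran from -0.20 without WT replicate 1 to 0.073 without WT replicate 2. In WT replicate 2 the 5 genes had a median deviation of 0.34 from their means over the 6 libraries, although Timm21 was lowest there.

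PAM members varied in both genotypes. Timm44 had log2 values of 9.36, 8.98 and 9.02 in WT and 9.08, 9.38 and 9.17 in KO. Timm44, which anchors the motor to TIM23, had the highest log2 fold change of PAM, 0.091 (SE 0.159, 95% interval -0.28 to 0.46). Pam16 had log2 values of 6.71, 6.65 and 6.77 in WT and 6.88, 6.31 and 6.56 in KO. Pam16, which restrains the motor's J-protein, had the lowest, -0.13 (SE 0.225, 95% interval -0.65 to 0.39). Dnajc19 had log2 values of 8.78, 9.40 and 9.08 in WT and 9.58, 8.99 and 8.79 in KO. Dnajc19, that J-protein, ran from WT replicate 1 to KO replicate 1 over 0.80 log2 units and had a log2 fold change of 0.032 (SE 0.242, 95% interval -0.53 to 0.59).

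The nucleotide exchange factors of the motor had the smallest SDs of PAM over the 6 libraries. Grpel1 had log2 values of 10.41, 10.53 and 10.45 in WT and 10.52, 10.46 and 10.25 in KO. Grpel2 had log2 values of 9.78, 9.84 and 9.49 in WT and 9.85, 9.78 and 9.53 in KO. The SD was 0.10 for Grpel1, the third smallest of the 34, and 0.16 for Grpel2, and log2 fold changes were -0.050 (SE 0.13, 95% interval -0.35 to 0.25) for Grpel1 and 0.015 (SE 0.154, 95% interval -0.34 to 0.37) for Grpel2. The PAM median was 0.015, with 3 genes higher and 2 lower in KO, and ran from -0.10 without KO replicate 1 to 0.11 without KO replicate 3.

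The last 2 members are no part of a translocase. Tomm34 had log2 values of 7.80, 7.48 and 7.87 in WT and 7.52, 7.80 and 8.05 in KO. Tomm34, a cytosolic co-chaperone of precursors, had a log2 fold change of 0.076 (SE 0.199, 95% interval -0.38 to 0.54). Tomm6os had log2 values of 3.81, 2.96 and 2.57 in WT and 3.13, 3.36 and 3.01 in KO. Tomm6os, a noncoding RNA on the strand opposite Tomm6, had an SD of 0.418 over the 6 libraries and a log2 fold change of 0.051 (SE 0.484, 95% interval -1.07 to 1.17), with overlapping groups.

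**Figure D2:**
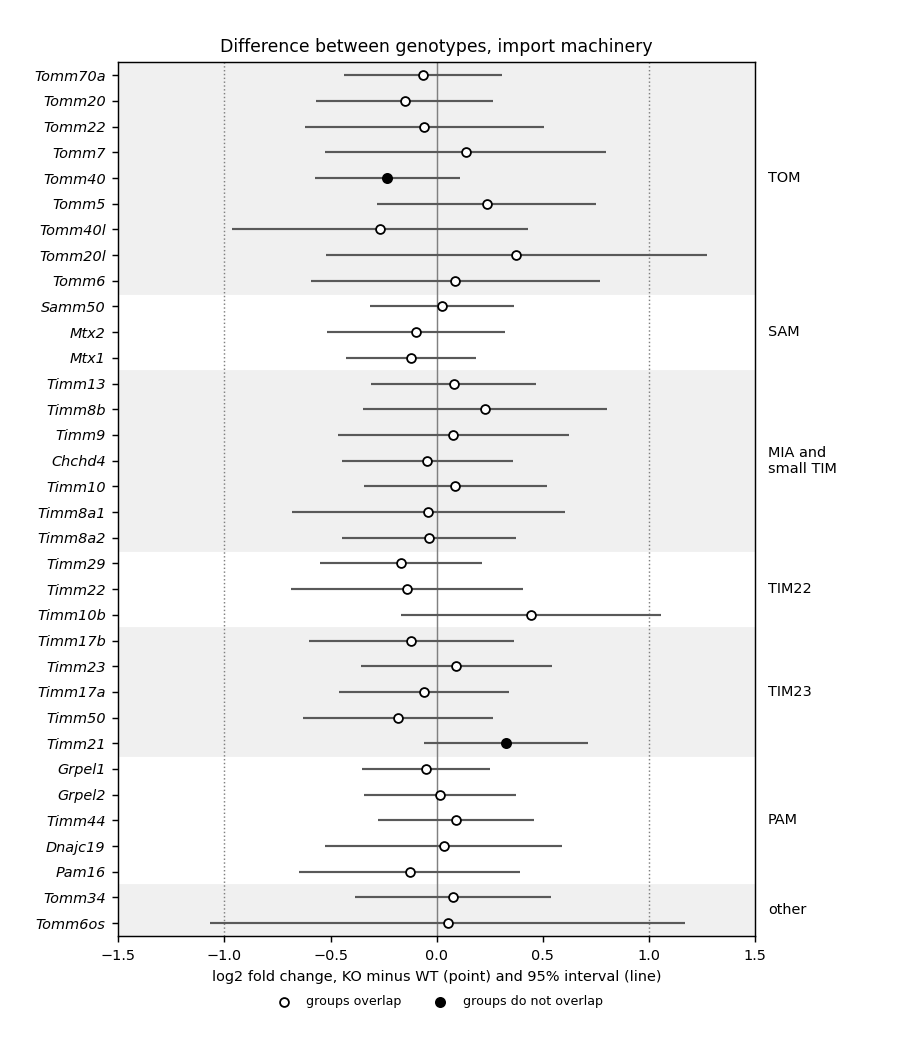
Log2 fold change, KO minus WT (points), with its 95% interval from limma (lines) for the 34 import genes, grouped by complex, filled points marking genes whose WT and KO values do not overlap. Every interval includes 0, and 31 of 34 lie between the dotted lines at -1 and 1.

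Levels were compared between genes after dividing by exonic length, as the log2 of the level per kilobase. Timm8b was highest with 9.38, followed by Tomm7 with 9.09 and Timm13 with 8.97 in this unit, and each step between neighbours among these 3 was smaller than the SD of either over the libraries (0.351, 0.408 and 0.192). Grpel1 at 8.62 and Tomm22 at 8.60 came next and did not differ beyond their spread. At the other end were Timm8a2 at -0.50, Tomm6 at 0.010 and Tomm20l at 1.56 per kilobase. The channel gene Tomm40 stood at 6.56 and its paralog Tomm40l at 4.30 in log2 level per kilobase. The divisor was the merged exons of a gene, which can exceed its transcripts and lower the level. Tomm40 has 4513 such bases and a longest coding transcript of 1646, against 5135 and 4712 for Tomm40l. Order and distance between genes thus depend partly on annotation, and the values of Tomm40l and Tomm6 are uncertain as given above.

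Differences between paralogs or partners within a library, which a scaling of that library cannot move, were compared for 10 pairs. None of the 10 had groups without overlap, and none had an adjusted p below 1.0 by the exact two-sided permutation test, where 3 against 3 allow no unadjusted p below 0.1. Timm8a1 minus Timm8b came nearest, with -2.03 ± 0.14 for WT and -2.30 ± 0.33 for KO (SD, n = 3 each), and an exact permutation p of 0.3. Timm17a minus Timm17b was -0.42 ± 0.24 for WT and -0.36 ± 0.11 for KO (SD, n = 3 each). Grpel1 minus Grpel2 was 0.76 ± 0.18 for WT and 0.69 ± 0.024 for KO (SD, n = 3 each). Tomm40 minus Tomm40l was 2.05 ± 0.55 for WT and 2.09 ± 0.42 for KO (SD, n = 3 each). In these 3 paralog pairs the genotypes differed by less than the WT spread. For the other 6 pairs the KO minus WT difference ran from -0.15 for Timm17a minus Timm23 to -0.010 for Timm9 minus Timm10.

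**Figure D3:**
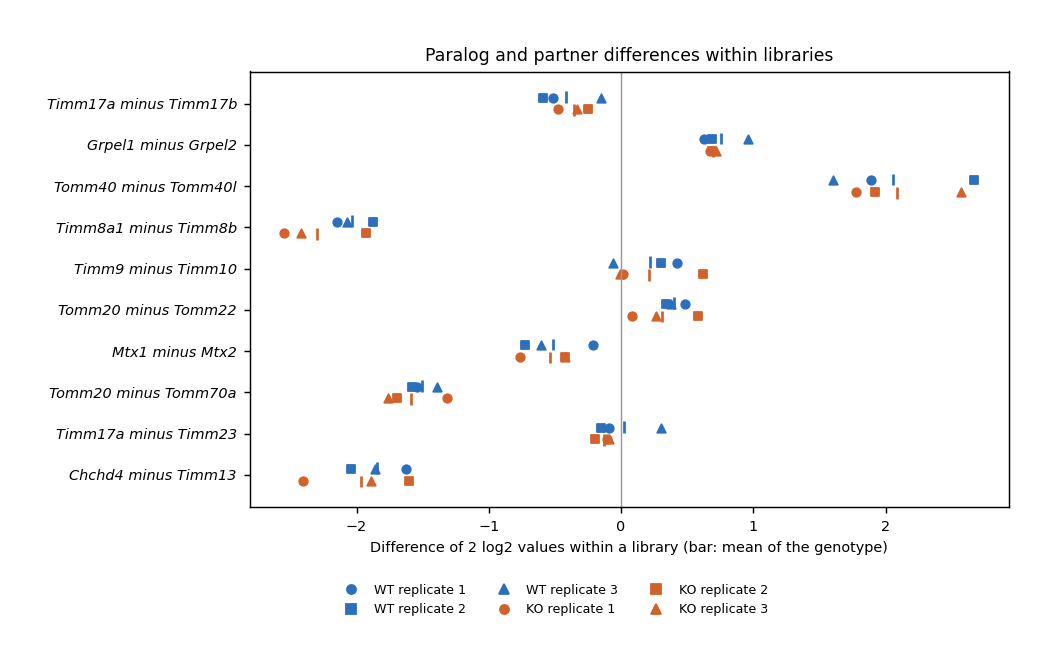
Difference of 2 log2 values within each library (horizontal axis) for 10 paralog or partner pairs, with WT in blue, KO in orange, a symbol per replicate and a bar at each genotype's mean. The WT and KO ranges overlap in all 10 pairs.

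High and low values of these genes gathered in certain libraries of both genotypes. Of the 30 members with a mean above 6, 12 were highest in WT replicate 2 and 9 in KO replicate 1, against 14.7% and 22.1% of the 10889 genes above 6. The lowest value fell in KO replicate 3 for 9 of the 30 and in WT replicate 1 for 8, against 16.4% and 15.6% of those genes. The mean deviation of the 30 members from their own means was 0.13 in both WT replicate 2 and KO replicate 1. It was -0.10 in WT replicate 1, -0.028 in WT replicate 3, 0.011 in KO replicate 2 and -0.14 in KO replicate 3. Each genotype thus held a library high and a library low in import transcripts. The 6 hepatocyte markers had mean deviations of -0.11, 0.25 and -0.25 in WT replicates 1, 2 and 3 and of 0.39, -0.37 and 0.096 in KO replicates 1, 2 and 3. The same 2 libraries were highest in both lists, while KO replicate 3 was lowest in import transcripts and above its mean in hepatocyte markers, and the part of hepatocyte content was not tested.

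**Figure D4:**
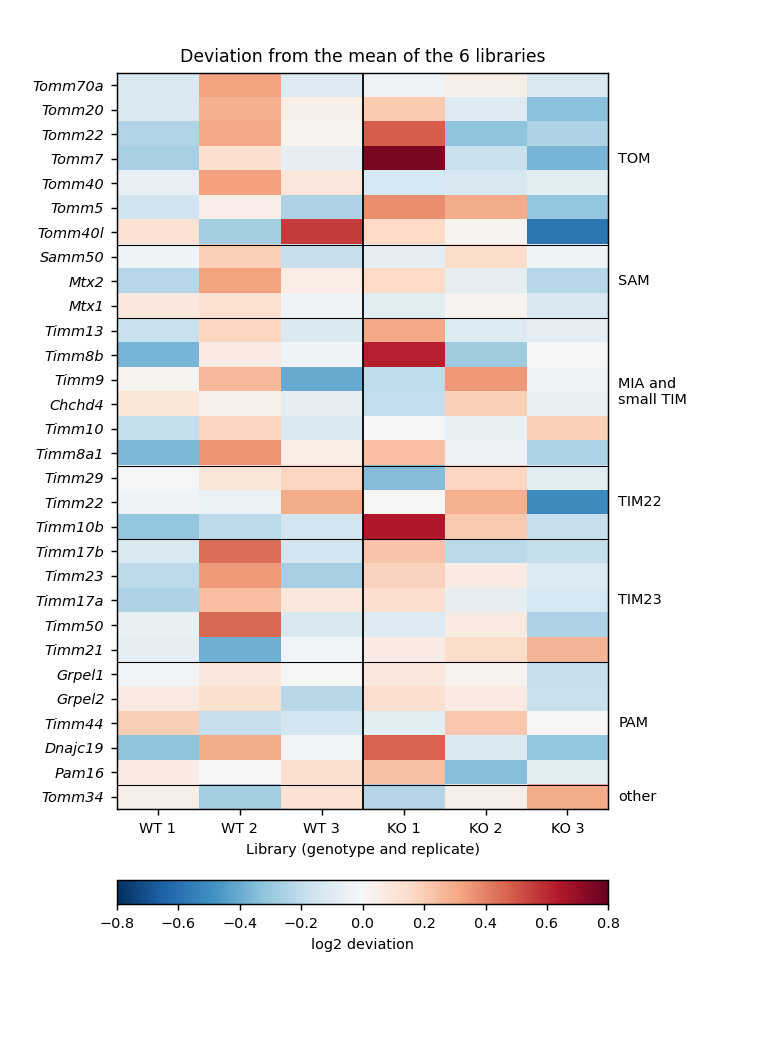
Log2 deviation of each of the 30 import genes with a mean above 6 (rows, grouped by complex) from its mean over the 6 libraries (columns), in a color scale from blue (below) to red (above). Red prevails in WT 2 and KO 1 and blue in WT 1 and KO 3, on both sides of the line between genotypes.

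By the length of a gene's merged exons, short members had the higher median deviation in KO replicate 1. Of the 22 longer members 12 also lay above their means there, with Timm10b at 0.64 and Dnajc19 at 0.47. The 8 members under 2 kb (Timm8b, Timm10, Tomm5, Tomm7, Timm13, Timm8a1, Tomm22 and Timm23) had a median deviation of 0.34 in KO replicate 1, 7 of 8 being above their means, and the 22 longer members had 0.038. Some members classed as longer have a longest coding transcript under 2 kb, so the classes depend on the measure of length. These are Tomm40 (1646 bases), Mtx1 (1617), Timm50 (1515), Timm44 (1790) and Pam16 (596). Their deviations in KO replicate 1 were -0.14, -0.083, -0.10, -0.084 and 0.23. Over all genes with a mean above 6, the medians in that library were 0.19 for the 1339 genes under 2 kb and -0.014 for the 9441 longer ones. In WT replicate 2 the short and the long members had medians of 0.18 and 0.13, against 0.094 and -0.0076 for all genes of these lengths. The short members' median log2 fold change between genotypes was 0.089 with 6 of 8 higher in KO, -0.040 with 3 of 8 higher without KO replicate 1, and 0.22 with 8 of 8 higher without WT replicate 2. Over all 1339 genes under 2 kb the median was 0.038, with 769 higher in KO. It was -0.054 with 551 higher without KO replicate 1, and 0.0996 with 848 higher without WT replicate 2, so short genes in general moved the same way. These values stand beside those of Tomm7, Timm8b and Tomm5, and the part of transcript length in them was not tested.

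**Figure D5:**
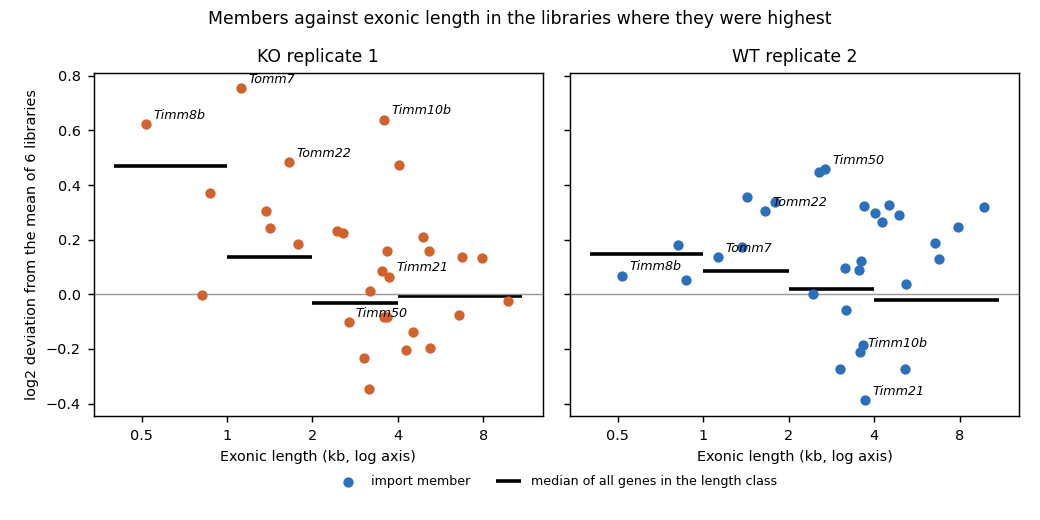
Log2 deviation of each import gene from its mean over the 6 libraries against exonic length (log axis, kb), in KO replicate 1 (left) and WT replicate 2 (right), with bars at the median of all genes above 6 in each length class. In KO replicate 1 the 8 members under 2 kb have a median of 0.34 and the longer ones 0.038. In WT replicate 2 the medians of both classes of members lie above 0, with 15 of the 22 longer members above 0.

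Further genes that act with the machinery showed no difference that passed the test either. The list held 28 genes, among them mitochondrial Hsp70 (Hspa9), presequence peptidases (Pmpca and Pmpcb), the inner membrane insertase Oxa1l and the cristae organiser Immt. All 28 were tested, and 0 had an adjusted p under 0.05 by limma, against 0% of all genes tested. An unadjusted p under 0.05 by limma was reached by 0 of 28, against 4.34% of all genes tested, and the smallest was 0.115. It was reached by 1 gene without WT replicate 2 and by 1 without KO replicate 1, where 4.62% and 5.97% of all genes reached it. Means were higher in KO for 11 and lower for 17, against 47.7% higher over all genes tested. The median log2 fold change was -0.013, against -0.015 for all genes tested, in a range from -0.21 for Apoo to 0.37 for Immp1l. After centring each library on its median 21 were higher and 7 lower, with a median of 0.041, against 0.039 for all genes tested. When 1 library was omitted between 12 and 19 were higher. Mtch2 had log2 values of 10.84, 10.96 and 10.82 in WT and 11.03, 11.02 and 11.01 in KO. Mtch2, an outer membrane insertase, was the 1 gene of 28 without overlap, higher in KO with a log2 fold change of 0.15 (SE 0.121, 95% interval -0.13 to 0.43), against 8.28% of all genes tested.

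Several import genes share sequence with other genes, which limits how their reads could be assigned. For 6 members over 40% of a transcript was matched at 95% identity or more, on either strand, by transcripts of other genes. Timm23 was matched over 95.6% of its transcript, chiefly by Gm10273 at 99.9% identity, and Gm10273 had log2 values between -0.76 and 0.63. Pam16 was matched over 89.6% by Gm9803, a gene that does not overlap the exons of Pam16 in the annotation. Gm9803 had log2 values of 2.16, 2.70 and 3.06 in WT and 0.76, 1.67 and 1.84 in KO. Gm9803 was lower in all 3 KO libraries than in any WT library, with an unadjusted p of 0.0356 and an adjusted p of 0.999 by limma, while the values of Pam16 overlapped. The other 4 were Tomm6 (chiefly with Gm21981), Tomm40l (with Nr1i3), Timm8a1 (with Gm9797) and Tomm6os. Tomm6os was matched over 46.8% by 3 other genes together, the longest single match being 323 bases of Prickle4. Nr1i3 and Prickle4 overlap their partners at the same place on the opposite strand. In all, 16 of the 34 members share exonic bases with a gene on the opposite strand, Timm9 and Tomm20l with each other among them. On the same strand, 5 members share exonic bases with another gene, and strand cannot separate those bases. Timm10b is among the 5 (with Gm45799), and 24.6% of its transcript was matched by other genes. The study's methods name a stranded library kit, and the sources do not say whether counting used strand.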

How the data were processed

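RNA-seq libraries of 3 WT and 3 Top1mt -/- liver tumors were compared by genotype as labelled. Log2 expression values, listed by symbol, were deposited by the authors, who made them from trimmed, aligned and counted reads. The study's methods name Trimmomatic, BWA with a genome called Mm 8, featureCounts and DESeq2, whereas the submitters' processing notes name Trimmomatic 0.36, STAR 2.5.1, GRCm38, Subread and DESeq2. The log2 transform is not given in the sources used here. If it was a regularized log, changes of weak genes are understated, which was not tested, and no counts or depth can be recovered.

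Genes whose mean exceeded the lowest 25% (22677 of 30236) were fitted with limma 3.58.1 in R 4.3.3 (lmFit, eBayes with trend, Benjamini-Hochberg, threshold 0.05). Two-sided exact permutation tests over samples were used for 10 within-library differences. Annotation was GENCODE M21 on GRCm38, exonic length being the merged exons of a gene, and sequence matches of at least 100 bases used blastn 2.17.0. Same-numbered libraries did not deviate together (correlations -0.12, -0.076 and 0.052 for numbers 1, 2 and 3), so numbers were not treated as pairs. Named with values in every library were, in each complex, members without overlap and those with the highest and lowest fold change, the extremes of spread and of level per length, and others added afterwards. The members and lists were chosen with earlier results of these data known. Alternatives were limma without trend, quantile normalization, centring, no filter, a filter at the median, a replicate block and each library left out. The table holds 3 unnamed columns with leftover cells, which were not used.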

Additional observations from a re-analysis of the deposited data

How the results depend on the processing

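No member passed the adjusted threshold under any of the 12 alternatives, the smallest adjusted p of a member by limma being 0.867. Over all genes, 4 passed with no filter on low values, and 0 to 1 when a library was left out, the 1 being without KO replicate 1. Members at an unadjusted p under 0.05 by limma numbered 0 to 2 when a library was left out, against 3.79% to 5.97% of all genes. The 2 were Tomm5 and Timm10b without KO replicate 3, where the share was 3.79%. Members without overlap numbered 4 to 5 when a library was left out, where 15.9% to 21.5% of all genes had no overlap. They numbered 3 after quantile normalization, where the share was 8.4%. After centring they numbered 2, Tomm20l and Timm21, where the share was 8.7%. Without 1 library the median of each complex turned sign at least once, running from -0.21 to 0.089 for TOM, -0.11 to 0.038 for SAM, -0.027 to 0.19 for MIA and small TIM, -0.30 to 0.078 for TIM22, -0.20 to 0.073 for TIM23 and -0.10 to 0.11 for PAM. The median over the members then ran from -0.060 to 0.049, that of the related genes from -0.011 to 0.057, and pairs without overlap from 0 to 2. The replicate block called 0 genes and 0 members and changed no other call, with 912 genes at an unadjusted p under 0.05. The filter at the median left 31 members tested.

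Direction in 21 of 34 members turned on leaving out 1 library, the log2 fold change ranging over -0.15 to 0.043 for Chchd4, -0.20 to 0.20 for Dnajc19, -0.10 to 0.031 for Grpel1, -0.093 to 0.11 for Grpel2, -0.24 to 0.038 for Mtx2, -0.28 to 0.0084 for Pam16, -0.064 to 0.12 for Samm50, -0.052 to 0.19 for Timm13, -0.20 to 0.047 for Timm17a, -0.26 to 0.073 for Timm17b, -0.32 to 0.078 for Timm22, -0.019 to 0.28 for Timm23, -0.23 to 0.13 for Timm8a1, -0.027 to 0.43 for Timm8b, -0.10 to 0.23 for Timm9, -0.31 to 0.089 for Tomm22, -0.054 to 0.21 for Tomm34, -0.13 to 0.31 for Tomm6, -0.22 to 0.40 for Tomm6os, -0.21 to 0.36 for Tomm7 and -0.14 to 0.079 for Tomm70a. The other 13 kept their sign, with ranges of -0.17 to -0.088 for Mtx1, 0.015 to 0.20 for Timm10, 0.24 to 0.65 for Timm10b, 0.21 to 0.39 for Timm21, -0.30 to -0.038 for Timm29, 0.0060 to 0.21 for Timm44, -0.29 to -0.00071 for Timm50, -0.071 to -0.0039 for Timm8a2, -0.29 to -0.021 for Tomm20, 0.037 to 0.57 for Tomm20l, -0.32 to -0.13 for Tomm40, -0.47 to -0.043 for Tomm40l and 0.11 to 0.45 for Tomm5. Centring turned Chchd4 to 0.010, Grpel1 to 0.0047, Timm8a1 to 0.015 and Timm8a2 to 0.018, and quantile normalization turned Timm8a1 to 0.0073 and Timm8a2 to 0.0045. The cause was not tested. Depth is unknown, and 3 tumors per genotype limit precision.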
